A study of Homo sapiens with 6 samples.

Results

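The SLC12 cation-chloride cotransporters and the kinases that switch them were examined by RNA-seq in U251, an established glioblastoma line. The 9 genes were taken by name from the 58735 genes of the deposited table. They are the transporter genes SLC12A2, SLC12A4, SLC12A5, SLC12A7, SLC12A8 and SLC12A9 and the kinase genes WNK1, STK39 and OXSR1. The set was selected on the FPKM difference between TNF-α and control libraries, with SLC12A7 as its lead gene. TNF-α is the cytokine tumor necrosis factor-α. The values of the 9 genes are therefore given as a description without p-values. The control cells (NC group, n = 3) received sterile deionized water and the treated cells (TNF-α group, n = 3) received recombinant human TNF-α at 10 ng/mL, both for 24 h. The labels describe the 3 samples of each condition as independent biological replicates, and all come from this single line. In such bulk RNA, fewer cells of a kind and less RNA per cell cannot be told apart.

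Most SLC12 transporters move chloride across the cell membrane together with sodium or potassium and thereby set cell volume and intracellular chloride. SLC12A2 encodes NKCC1, which carries sodium, potassium and chloride inwards, and SLC12A4, SLC12A5 and SLC12A7 encode the potassium-chloride exporters KCC1, KCC2 and KCC4. The chloride-sensing kinase WNK1 activates SPAK (the product of STK39) and OSR1 (the product of OXSR1), which switch NKCC1 on and the KCCs off by phosphorylation. In glioma cells these transporters are known for the volume changes that accompany migration.

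The promoters of the 9 genes were read first, because NF-kB, the transcription factor downstream of the TNF receptors, binds DNA at κB sites. RefSeq start sites on GRCh38.p14 gave 13 promoters for the 9 genes, and the 250 bases before each start were searched on both strands. The SLC12A7 promoter (chr5:1112064-1112313, minus strand) is shown whole, as that of the lead gene, next to that of the importer SLC12A2 (chr5:128083516-128083765, plus strand). Capitals mark the E-box CACGTG and the GC box GGGCGG or its reverse complement.
SLC12A7: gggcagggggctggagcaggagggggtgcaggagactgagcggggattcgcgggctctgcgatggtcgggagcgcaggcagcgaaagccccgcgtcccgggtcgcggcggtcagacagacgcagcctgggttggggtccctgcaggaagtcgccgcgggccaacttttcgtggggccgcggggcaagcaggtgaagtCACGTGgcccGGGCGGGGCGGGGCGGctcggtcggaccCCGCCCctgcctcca
SLC12A2: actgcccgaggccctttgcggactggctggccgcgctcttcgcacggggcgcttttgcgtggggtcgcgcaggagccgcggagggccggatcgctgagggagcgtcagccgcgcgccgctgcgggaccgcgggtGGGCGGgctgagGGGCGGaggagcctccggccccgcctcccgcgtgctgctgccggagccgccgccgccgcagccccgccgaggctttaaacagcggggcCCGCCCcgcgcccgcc
The SLC12A7 window held 1 E-box, 53 to 48 bases before the start, and 4 GC boxes, 3 of them overlapping at their ends. It had a GC content of 74.4%, against a median of 58% over the 35116 promoters of the table. The SLC12A2 window had a GC content of 79.6% and held 3 GC boxes and no E-box. No match to the κB consensus, to the AP-1 motif TGANTCA or to the TATA box TATAAA lay in either. Over all promoters, 6.34% held the E-box, 42.6% a GC box, 9.96% the κB consensus, 6.57% the AP-1 motif and 10.7% the TATA box.

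The κB consensus was matched in the promoters of 3 other members, and 30 bases around each match are shown with the matched bases in capitals. They lie at chr2:168247769-168247798 (minus strand) for STK39, chr16:67968753-67968782 (minus strand) for SLC12A4 and chr7:100826731-100826760 (plus strand) for SLC12A9.
STK39: tcctttggtGGGAACTTCCCcggccgccag
SLC12A4: ctcccgcccaGGGGTCTTCCcgccaccagg
SLC12A9: cccgggcaggGGAATGTCCCgggtcgtagc
The STK39 stretch reads as a match on both strands, in overlapping positions. The SLC12A4 match counts in 2 of its 4 listed promoters, which overlap. A match is a string of letters, and binding was not measured.

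The libraries held between 31992167 and 37897044 reads in genes. Expression is given as FPKM, reads scaled for gene length and library total, and levels of different genes are compared only on this scale. The total behind the FPKM was 0.693 and 0.759 of the reads in genes in TNF-α replicates 2 and 3, against 0.925 to 0.959 in the other 4 libraries, so that the same share of gene reads gives a higher FPKM in those 2. TNF-α replicates 2 and 3 stood apart from the other 4 libraries. Across the 12136 genes tested, Pearson's r of log2(FPKM + 1) was 0.992 between these 2 libraries and 0.889 to 0.912 between them and TNF-α replicate 1, which reached 0.979 to 0.980 with the NC libraries. Genes longer than 8000 bases took 16.6% and 17.9% of the reads in TNF-α replicates 2 and 3, against 28.8% to 29.1% in the other 4. SLC12A2, SLC12A4, SLC12A5, SLC12A9 and WNK1 are longer than this, and the members are given by library below. The labels name no batch, and the part of handling in this split was not tested. The treatment was visible in all 3 treated libraries, with NFKBIA, an NF-kB target and inhibitor, at 13.0, 13.3 and 14.4 FPKM in control cells against 75.3, 118 and 112 FPKM in treated cells. TNFAIP3, also read as a check of the treatment, had 3.44 to 4.22 FPKM in the NC libraries. In TNF-α replicates 1 to 3 it had 57.6, 18.9 and 26.8 FPKM, highest in replicate 1, where NFKBIA was lowest. Of 6 glioma markers 5 had a mean of at least 1 FPKM in each group, the exception being S100B, and summed to 568 to 618 FPKM (NC) and 675 to 1205 FPKM (TNF-α). VIM made up most of this sum, whereas GFAP went the other way, from 7.10 to 9.47 FPKM (NC) to 1.58 to 2.60 FPKM (TNF-α), and SOX2 was at 57.8, 22.6 and 30.4 FPKM in TNF-α replicates 1 to 3 against 58.9 to 66.3 FPKM in the NC group. Of 8 markers of other cells, SYT1 alone did, and they summed to 3.68 to 3.99 FPKM (NC) and 1.94 to 3.90 FPKM (TNF-α). The leukocyte marker PTPRC was at 0 in all 6 libraries.

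SLC12A7 (ENSG00000113504, GRCh38 chromosome 5, 1050376 to 1112035, minus strand) was almost silent in the control cells and well expressed in every treated library. Its values were 0.421, 0.423 and 0.338 FPKM in NC replicates 1 to 3, which rest on 91, 83 and 65 reads. In TNF-α replicates 1 to 3 they were 9.17, 11.0 and 11.1 FPKM, resting on 1763, 1708 and 1613 reads. The lowest treated library thus stood far above the highest control library, and TNF-α replicate 1 moved with the other two. The group means were 0.394 ± 0.0484 and 10.4 ± 1.09 FPKM (mean ± SD, n = 3 per group), a ratio of 26.5. The treated libraries stood at 23.3, 28.0 and 28.2 times the NC mean. On the log2(FPKM + 1) scale, where the added 1 shrinks differences at low levels, the difference was 3.03 with a standard error (SE) of 0.13 from a limma fit over all genes tested. This placed SLC12A7 at rank 13 of 12136 genes by rise, while 5 genes had a larger ratio of group means. No exon of another gene overlaps those of SLC12A7, so its reads are not shared with a neighbouring transcript.

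**Figure D1:**
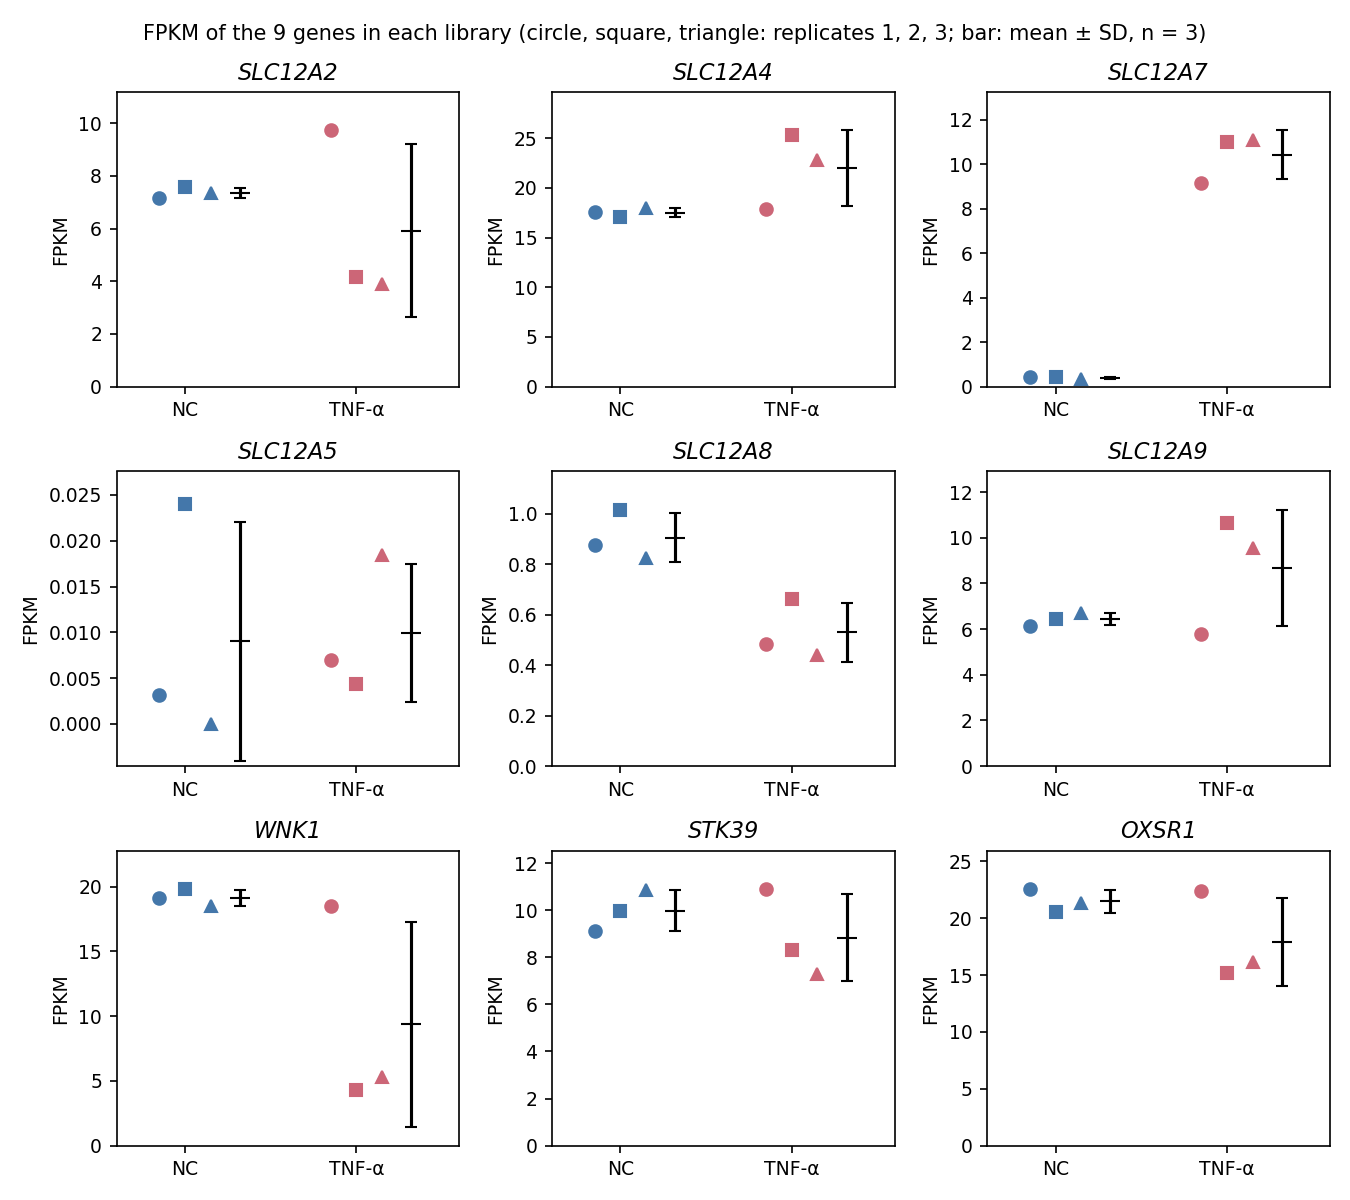
FPKM of the 9 genes in the NC and TNF-α libraries, 1 panel per gene, with the mean ± SD (n = 3) beside the points. The TNF-α libraries of SLC12A7 sit between 9.17 and 11.1 FPKM against 0.338 to 0.423 FPKM in the NC libraries, whereas the SLC12A2 and WNK1 panels show TNF-α replicates 2 and 3 apart from replicate 1.

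The other exporters of the set did not share this pattern. SLC12A4 (KCC1, ENSG00000124067, chromosome 16, 67943474 to 67969601), the housekeeping exporter of most cells, was the leading exporter transcript of the set in all 6 libraries. It had 17.6, 17.0 and 17.9 FPKM (NC), compared with 17.9, 25.3 and 22.8 FPKM (TNF-α). TNF-α replicate 1 lay within the NC range and the other treated libraries above it, for a difference of 0.30 (log2, SE 0.16) that was -0.19 under TPM, where the median over all genes was -0.42. Relative to the median it was 0.26 and 0.23. The difference was smaller under quantile normalization (0.05) and after a correction of each library for GC content and gene length (0.14). LCAT overlaps 4.05% of the exon bases of SLC12A4. SLC12A5 (KCC2, ENSG00000124140, chromosome 20, 46021690 to 46060152), the exporter of mature neurons, was covered by 1, 7 and 0 reads (NC) and by 2, 1 and 4 reads (TNF-α). A count of 3 reads of this gene corresponds to 0.00932 to 0.0139 FPKM depending on the library, so both groups were near the detection limit and no fold is given.

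SLC12A2 (NKCC1, ENSG00000064651, chromosome 5, 128083766 to 128189688) went in opposite directions in the treated libraries. It had 7.17, 7.56 and 7.36 FPKM in the NC libraries, 9.72 FPKM in TNF-α replicate 1, and 4.16 and 3.88 FPKM in TNF-α replicates 2 and 3. Relative to the NC mean this was 1.32 times the level in replicate 1 but 0.566 and 0.527 times in replicates 2 and 3. The group means of 7.36 ± 0.195 and 5.92 ± 3.29 FPKM (SD, n = 3 per group) differed by less than the spread of the treated libraries, with a log2 difference of -0.37 (SE 0.31). After a correction of each library for GC content and gene length, the ratios of the 3 treated libraries to the NC mean became 0.33, -0.01 and -0.14 on the log2 scale, so that the fall in replicates 2 and 3 was mostly removed and the rise in replicate 1 remained.

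The make-up of the exporter transcripts of the set does not depend on the scale of a library, since it is a share within it. SLC12A7 made up 2.34%, 2.42% and 1.85% of the summed FPKM of SLC12A4, SLC12A5 and SLC12A7 of the control libraries, compared with 33.9%, 30.3% and 32.7% of the treated ones. The groups were far apart, and the 3 treated libraries, so different in other respects, lay close together (2.20% ± 0.308 against 32.3% ± 1.81, SD, n = 3 per group). The summed level of these 3 exporters went from 17.9 ± 0.412 to 32.4 ± 4.81 FPKM. Unlike the shares, this sum depends on the scale of a library. That scale gave higher FPKM for the same share of gene reads in TNF-α replicates 2 and 3 (sums of 36.3 and 33.9 FPKM). In TNF-α replicate 1 the sum was 27.0 FPKM, and SLC12A7 accounted for the increase there, as SLC12A4 was at its NC level. The ratio of NKCC1 to the 3 exporters was 0.398, 0.433 and 0.403 in the NC libraries, 0.359 in TNF-α replicate 1 and 0.115 and 0.114 in TNF-α replicates 2 and 3. In replicate 1 both sides of the ratio had risen. The mean ratio over the TNF-α group was 0.477 times that of the NC group, but 0.874 times in replicate 1 alone, so most of it rests on replicates 2 and 3. There, genes of the length and GC content of SLC12A2 had fitted log2 ratios of -0.68 and -0.64. The fitted values were 0.27 and 0.22 for SLC12A4, and 0.46 and 0.37 for SLC12A7. Part of the fall in the ratio is thus shared by genes of like length and GC content, and no corrected ratio was computed.

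**Figure D2:**
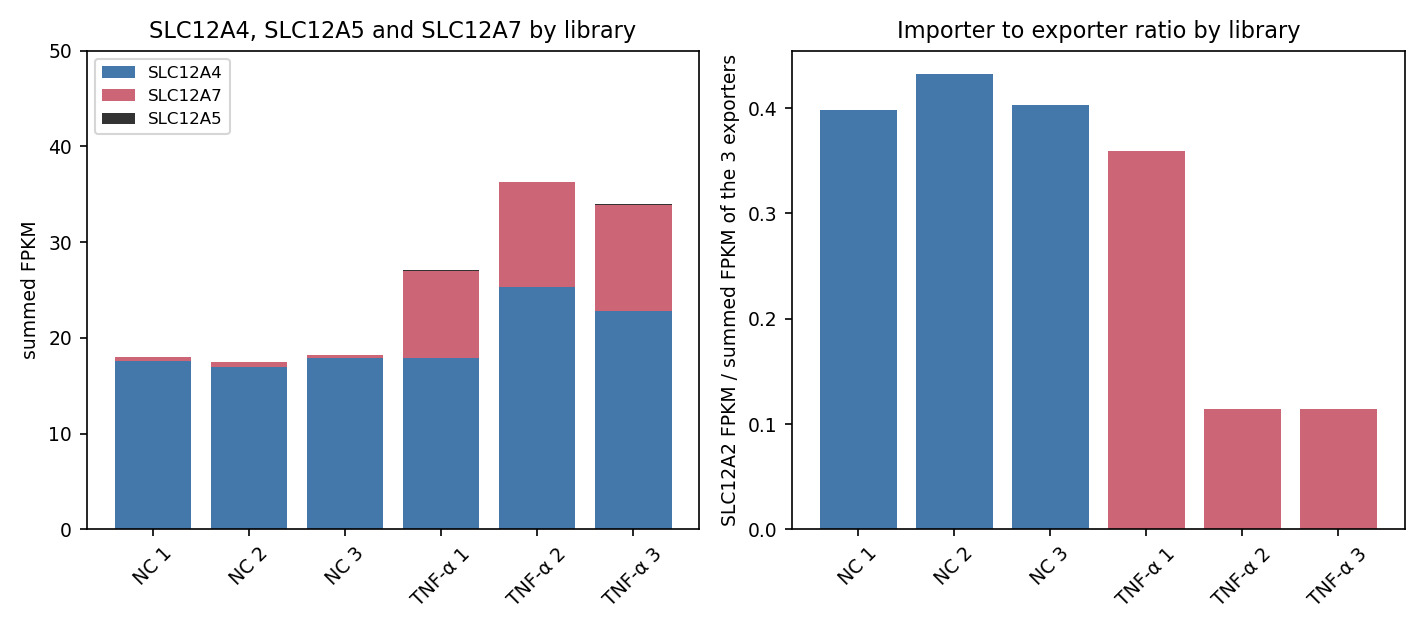
Left, FPKM of the 3 exporter genes SLC12A4, SLC12A5 and SLC12A7 stacked for each library; right, FPKM of SLC12A2 divided by that sum. SLC12A7 takes 30.3% to 33.9% of the summed level in the TNF-α libraries and 1.85% to 2.42% in the NC libraries, while the ratio on the right reads 0.359, 0.115 and 0.114 for TNF-α replicates 1 to 3. All values are as deposited, without a correction for GC content and gene length.

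The less well characterised transporters gave smaller differences. SLC12A8 (ENSG00000221955, chromosome 3, 125082636 to 125212864) had 0.877, 1.02 and 0.825 FPKM without and 0.485, 0.663 and 0.442 FPKM with TNF-α. The groups did not overlap, which also held for 30.1% of all genes tested, and TNF-α replicate 1 lay among the other treated libraries. SLC12A8 itself was too low to be tested. Its mean was 0.906 ± 0.0985 against 0.530 ± 0.117 FPKM (SD, n = 3 per group), a ratio of 0.585, which rests on 148 to 186 reads per NC library and 60 to 96 per TNF-α library. SLC12A9 (CIP1, ENSG00000146828, chromosome 7, 100826820 to 100867009), known to associate with NKCC1, had 6.15, 6.45 and 6.70 FPKM in control cells against 5.80, 10.7 and 9.57 FPKM in treated cells. TNF-α replicate 1 was below every NC library and the other treated libraries were above them, for a log2 difference of 0.34 (SE 0.22). It was -0.12 under TPM, but relative to the median over all genes it was 0.30 on both scales.

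Among the kinases, WNK1 (ENSG00000060237, chromosome 12, 752593 to 911452) stood at 19.1, 19.8 and 18.5 FPKM in NC replicates 1 to 3, 18.5 FPKM in TNF-α replicate 1, and 4.33 and 5.29 FPKM in TNF-α replicates 2 and 3. Replicate 1 was 0.964 times the NC mean, while replicates 2 and 3 were 0.226 and 0.276 times. The log2 difference of -1.22 (SE 0.48) rested on these 2 libraries. WNK1 is the longest of the 9 genes, with 14370 bases of merged exons. Genes of its length and GC content had fitted log2 ratios of -0.63 and -0.61 in these libraries, and -1.29 and -1.07 remained after the correction. STK39 (SPAK, ENSG00000198648, chromosome 2, 167954020 to 168248141) ranged from 9.10 to 10.8 FPKM in the NC libraries and had 10.9, 8.30 and 7.29 FPKM in the TNF-α libraries. OXSR1 (OSR1, ENSG00000172939, chromosome 3, 38165089 to 38255488) ranged from 20.6 to 22.5 FPKM in the NC libraries and had 22.4, 15.2 and 16.2 FPKM in the TNF-α libraries. TNF-α replicate 1 was marginally above the NC range for STK39 and within it for OXSR1, while replicates 2 and 3 were below it for both. The log2 differences were -0.17 (SE 0.17) for STK39 and -0.27 (SE 0.18) for OXSR1, and they turned to 0.12 and 0.057 with TNF-α replicate 1 as the lone treated library.

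Of the 9 genes, 7 passed the filter of at least 1 FPKM in at least 3 libraries, all but SLC12A5 and SLC12A8. SLC12A7 passed it through the TNF-α group alone. With an adjusted p under 0.05 in limma, 1 of the 7 was called, SLC12A7, against 1.01% of all genes tested, or 0.717% for calls that were higher after TNF-α. The groups did not overlap for 2 of the 7 (SLC12A7 and WNK1, the latter only by the gap between 18.53 FPKM in NC replicate 3 and 18.47 FPKM in TNF-α replicate 1), against 30.1% of all genes tested. As the set was chosen with this contrast known, nothing is read from these shares. Without TNF-α replicate 1 all 7 were called, but so were 9630 of all 12136 genes tested, and nothing is read from it about the members. With TNF-α replicate 1 as the lone treated library, the log2 difference was 2.87 for SLC12A7 and 0.36, now higher, for SLC12A2. That fit assumes that the lone library varies like the NC libraries.

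**Figure D3:**
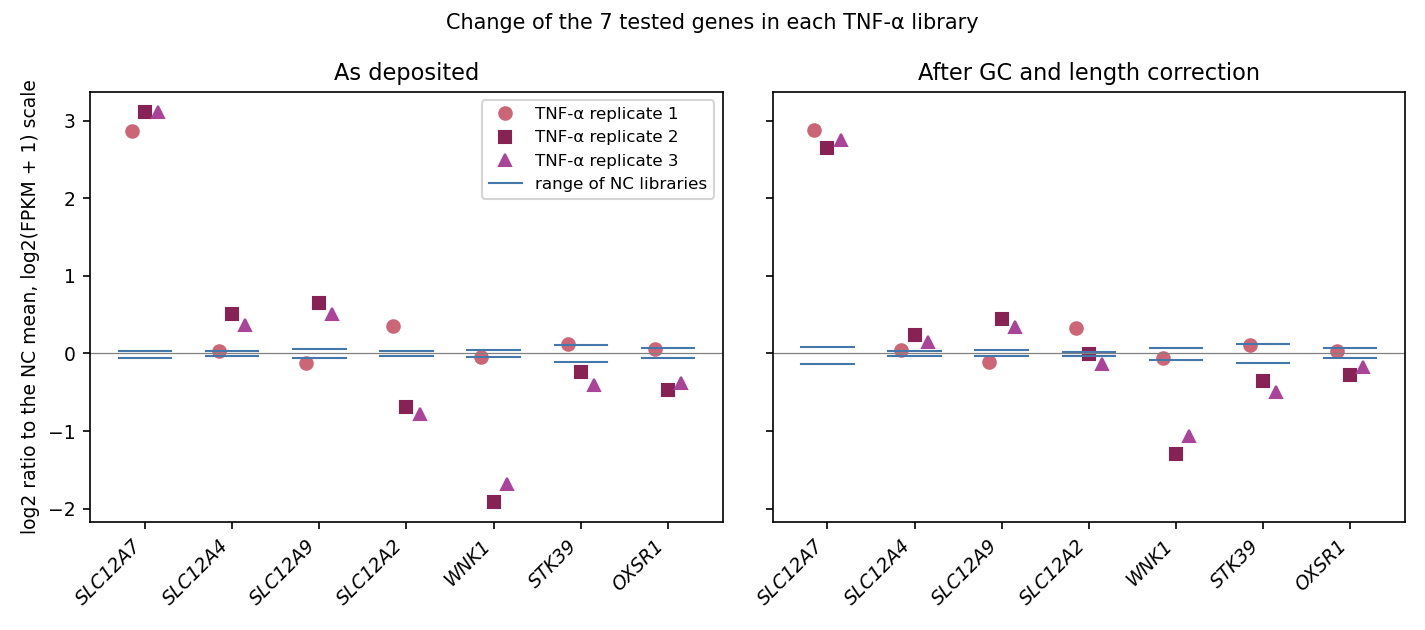
Log2 ratio of each TNF-α library to the NC mean for the 7 tested genes, as deposited (left) and after the correction for GC content and gene length (right), with the NC range as lines. SLC12A7 lies between 2.65 and 3.12 in every library of both panels, and WNK1 has -0.05 in TNF-α replicate 1 against -1.92 and -1.68 in replicates 2 and 3 as deposited.

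The order of levels within the family also differed between the groups. In the NC group it ran from OXSR1 (21.5 FPKM), WNK1 (19.1) and SLC12A4 (17.5) over STK39 (9.98), SLC12A2 (7.36) and SLC12A9 (6.43) to SLC12A8 (0.906) and SLC12A7 (0.394), and no neighbours in this order overlapped. Among the 9 genes, SLC12A7 moved by group mean from the eighth to the third place in the TNF-α group, behind SLC12A4 and OXSR1. In TNF-α replicate 1, SLC12A7 (9.17 FPKM) was also below WNK1 (18.5), STK39 (10.9) and SLC12A2 (9.72). Within the TNF-α group the ranges of SLC12A4 and OXSR1 overlapped. Those of SLC12A7, WNK1, STK39, SLC12A9 and SLC12A2 also overlapped with their neighbours, so that the order within each of these 2 sets is not resolved.

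SLC12A1 and SLC12A3, the salt transporters of the kidney tubule, had a mean of at most 0.0130 FPKM in the NC group and 0 in every TNF-α library, and no difference was detectable at this depth.

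The genes whose pattern over the 6 libraries was nearest to that of SLC12A7 were sought by the Euclidean distance between log2 ratios to the NC mean. In order they were CXCL2 (distance 0.24), CXCL11 (0.39), CXCL3 (0.44), NFKBIA (0.54) and TRAF1 (0.70). CXCL2, CXCL3 and CXCL11 encode chemokines and TRAF1 an adaptor of TNF receptors. CXCL2 went from 1.70 ± 0.175 to 22.0 ± 2.16 FPKM (SD, n = 3 per group). It stood at log2 ratios of 2.97, 3.05 and 3.23 in TNF-α replicates 1 to 3, beside 2.87, 3.11 and 3.12 for SLC12A7. The likeness holds on the log2(FPKM + 1) scale, as the ratio of group means was 26.5 for SLC12A7 but 12.9 for CXCL2, 7.50 for NFKBIA and 19.1 for TRAF1.

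**Figure D4:**
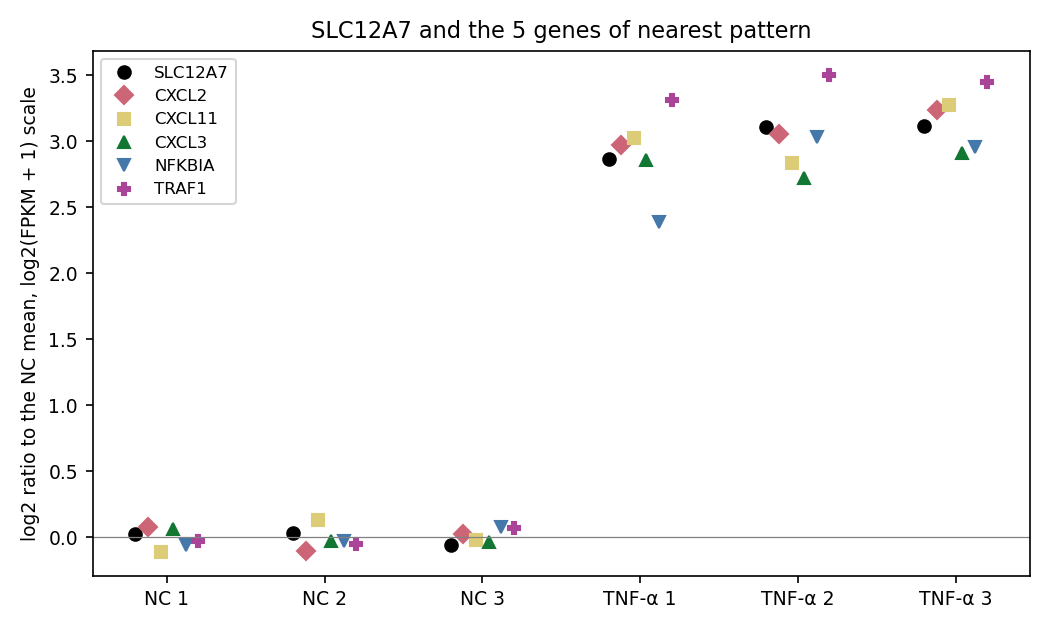
Log2 ratio to the NC mean in each library for SLC12A7 and the 5 tested genes with the smallest distance to it. The genes were chosen for this likeness, and lie near 0 in the NC libraries and between 2.39 (NFKBIA) and 3.50 (TRAF1) in the TNF-α libraries.

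The wider chloride and volume control machinery was examined through 6 lists of 80 genes outside the set, of which 45 passed the filter. None was called, against 1.01% of all genes tested (limma adjusted p under 0.05), and 14 had an unadjusted p under 0.05, against 24.2% of all genes tested. Their median log2 difference was -0.25, with 15 higher and 30 lower, beside a median of 0.04 over all genes tested. Corrected for GC content and length, it stood at -0.22 with 16 higher and 29 lower. In TNF-α replicates 1 to 3 their median log2 ratio was -0.01, -0.31 and -0.28, so that replicate 1 showed no shift. Without TNF-α replicate 1, 39 of the 45 were called, beside 9630 of all 12136 genes tested.

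Regulators of the WNK and SPAK/OSR1 kinases gave 15 tested genes, 6 higher and 9 lower, with a median of -0.04 that became 0.10 after the GC and length correction. The largest differences were those of TSC22D4, a partner of the WNK pathway, from 24.6 to 26.9 FPKM in the NC libraries to 27.5, 60.5 and 50.1 FPKM (0.76, SE 0.29, adjusted p 0.195), and of PPP1CA, a catalytic subunit of protein phosphatase 1 (0.74, SE 0.39, adjusted p 0.208). Chloride channels gave 13 tested genes, 3 higher and 10 lower, with a median of -0.28. CLIC1, an intracellular chloride channel protein, had 248 to 269 FPKM without and 272, 840 and 702 FPKM with TNF-α (1.06, SE 0.43, adjusted p 0.195). ANO6, a scramblase and channel, had a difference of -0.91 (SE 0.39, adjusted p 0.195). For these 4 genes TNF-α replicate 1 lay between 0.894 and 1.08 times the NC mean, so the differences rest on replicates 2 and 3. The GC and length correction took the log2 ratios in replicates 2 and 3 from 1.22 and 0.95 to 0.21 and 0.11 for TSC22D4, and from 1.31 and 1.08 to 0.25 and 0.21 for PPP1CA. For CLIC1 they went from 1.69 and 1.43 to 0.98 and 0.85, and for ANO6 from -1.44 and -1.30 to -0.87 and -0.77. Exons of other genes overlap 10.5% of TSC22D4 and 26.9% of PPP1CA, so part of their reads is uncertain.

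Bicarbonate and proton exchangers gave 7 tested genes, 3 higher and 4 lower (median -0.09, or -0.28 after the GC and length correction), led by the sodium bicarbonate cotransporter gene SLC4A7 (-1.31, SE 0.55, adjusted p 0.195) and the sulfate transporter gene SLC26A2 (-0.71, SE 0.30, adjusted p 0.195). TNF-α replicate 1 was at 1.02 and 0.991 times the NC mean for these genes, and replicates 2 and 3 at 0.185 and 0.232 times for SLC4A7 and 0.340 and 0.291 times for SLC26A2. The sodium-potassium ATPase, which maintains the gradients that drive SLC12 transport, gave 4 tested genes, 2 higher and 2 lower (median 0.10). They were led by the regulatory subunit gene FXYD5 (1.302, SE 0.45, adjusted p 0.195) and the beta subunit gene ATP1B1 (-0.64, SE 0.18, adjusted p 0.195). FXYD5 stood at 1.19, 4.14 and 3.17 times the NC mean in TNF-α replicates 1 to 3, and ATP1B1 at 0.793, 0.546 and 0.591 times. With the GC and length correction, the log2 ratios of FXYD5 in replicates 2 and 3 went from 2.02 and 1.64 to 0.99 and 0.78. Those of ATP1B1 went the other way, from -0.85 and -0.74 to -1.19 and -1.03. Genes of the osmotic response gave 6 tested genes, 1 higher and 5 lower (median -0.82, or -0.51 after the GC and length correction). NFAT5, the transcription factor of hypertonic stress, had 5.90 to 7.24 FPKM in control cells against 7.16, 0.529 and 0.439 FPKM in treated cells (-1.53, SE 0.66, adjusted p 0.195). AKR1B1, the aldose reductase that makes sorbitol, had 61.7 to 65.5 FPKM and 82.3, 211 and 182 FPKM (1.19, SE 0.36, adjusted p 0.195).

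**Figure D5:**
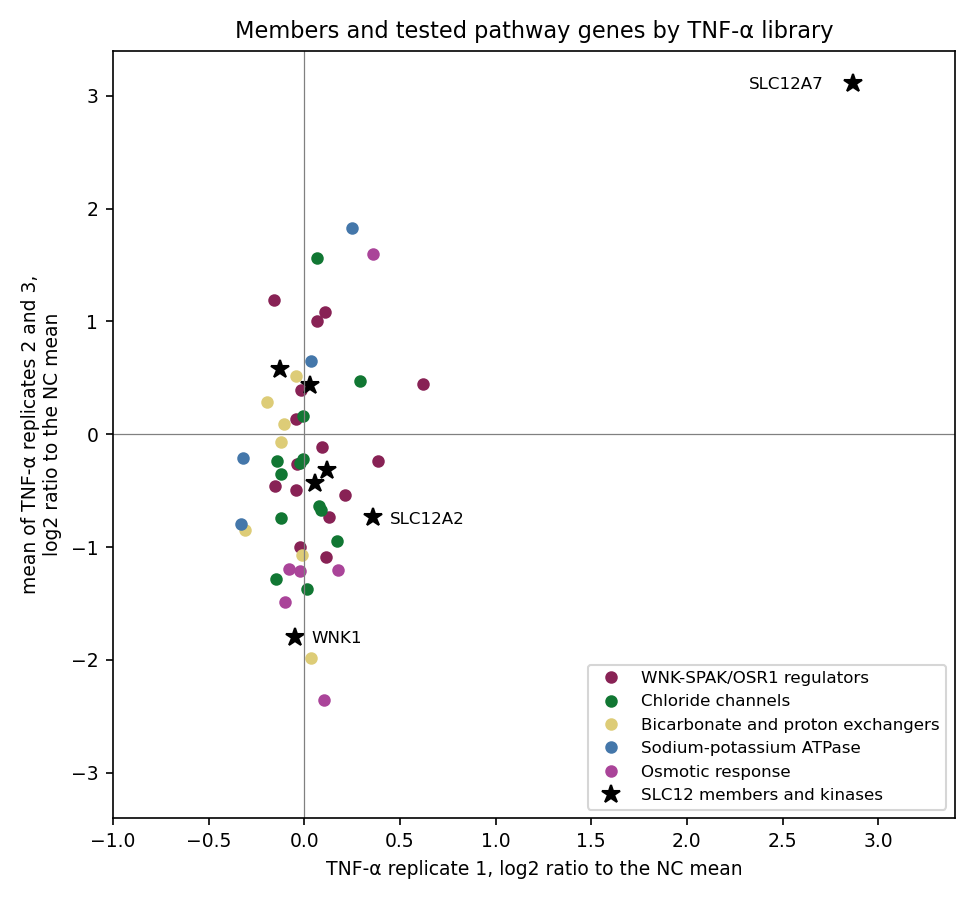
Log2 ratio to the NC mean in TNF-α replicate 1 (horizontal) against the mean of TNF-α replicates 2 and 3 (vertical) for the 7 tested members (stars) and the 45 tested pathway genes (circles). SLC12A7 alone lies high on both axes, at 2.87 in replicate 1, while the other genes lie between -0.33 (ATP1B1) and 0.62 (NEDD4L) on the horizontal axis and spread more widely along the vertical axis.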

How the data were processed

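RNA-seq of 6 U251 libraries was analysed, 3 NC and 3 TNF-α, grouped by sample title. Poly(A) libraries were made with a kit that does not mark strand. The authors deposited FPKM without pooling. Per the labels, HISAT2 2.0.5, StringTie 1.3.3b and featureCounts 1.5.0 were among the tools, without stated roles. All 58735 genes matched GENCODE release 29 (GRCh38) in identifier, name and coordinates, and the deposited gene lengths, used as another measure in bases, equalled its merged exon lengths. The table held 6 further columns of samples that are not described here and were not used.

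Reads were recovered from the FPKM and the gene lengths, as 100% of the products were whole (tolerance 0.01 of a read). log2(FPKM + 1) of the 12136 genes with at least 1 FPKM in at least 3 libraries was fitted with limma 3.58.1 (R 4.3.3, eBayes with trend, two-sided, Benjamini-Hochberg over all genes tested). The pipeline was tested on simulated data with the same spread in every library and no length or GC effect. The simulation thus lacked the split of TNF-α replicates 2 and 3 and cannot show how the fit behaves under it. The members, the 6 pathway lists and the alternatives were chosen with earlier results of these data known. Named were all members, the 2 tested genes of each list with the largest absolute difference, any called, and the 5 nearest patterns to SLC12A7. The GC and length correction subtracted natural splines (5 degrees of freedom each, with their products) fitted to each library's log2 ratios. GC content came from the longest transcript. Other pseudocounts, filters and scalings, a replicate block, limma-voom and leaving out each library were also tried. Some genes are not reported here, and the lists and the exporter sum were computed without them. Plots were drawn with matplotlib 3.10.9 in Python 3.11.15.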

Additional observations from a re-analysis of the deposited data

How the results depend on the processing

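The log2 difference of SLC12A7 (3.03), on which the set was chosen, was 4.41 and 3.61 with a pseudocount of 0.1 and 0.5, 3.54 under TPM, 3.14 under quantile normalization, 2.76 with the GC and length correction, 4.45 with limma-voom on the recovered reads and 2.87 with TNF-α replicate 1 as the lone treated library, the last 2 settings chosen after seeing the data. Under TPM and limma-voom the median over all genes was -0.42 and -0.21, and relative to it SLC12A7 stood at 3.95 and 4.66. The median over the tested members (-0.17) was -0.67 under TPM, -0.46 with limma-voom, 0.059 with the GC and length correction and 0.057 with the lone TNF-α replicate 1. The count of genes called (123) was 58 without a filter, 79 with at least 5 FPKM, 58 under TPM, 185 under quantile normalization, 247 with the GC and length correction, 77 with limma-voom, 24 with the replicate block, 732 with the lone TNF-α replicate 1, and 10 to 9630 when each library was left out in turn (17, 10 and 13 without NC replicates 1, 2 and 3, and 9630, 42 and 20 without TNF-α replicates 1, 2 and 3). The number of pathway genes called (0) was 0 to 39 when each library was left out, 39 of them without TNF-α replicate 1, and 2 with the lone TNF-α replicate 1. The ratio of NKCC1 to the 3 exporters, TNF-α over NC (0.477), lay at 0.279 to 0.577 when each library was left out, lowest without TNF-α replicate 1, and was 0.874 with the lone TNF-α replicate 1. It was not computed with the GC and length correction. The cause of these shifts was not tested. Whether replicate numbers pair the libraries was not settled. The deviations of same-numbered libraries from their group means correlated at -0.01, -0.18 and 0.12. With 3 libraries per group, and TNF-α replicates 2 and 3 apart from replicate 1, these values cannot decide it. The replicate block changed no call among the members. The 2 count models listed at the outset were not run, as the deposited values are FPKM, and limma-voom on the recovered reads was run in their place.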

Other observations

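Genes within 100 kb of SLC12A7 were read after its values were seen. The table lists 8 of them, among them the protein-coding genes NKD2 and SLC6A19. NKD2, whose end lies 11433 bases from SLC12A7, had 0 reads in all 6 libraries, and SLC6A19 had 4 reads in NC replicate 1, 2 in TNF-α replicate 2 and 0 in the others. The other 6, lincRNA, antisense and miRNA genes, with MIR4635 inside an intron of SLC12A7, had 0 reads throughout. Within this window SLC12A7 was thus the only gene with appreciable reads in either group.

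Pathway genes with a log2 ratio to the NC mean beyond 0.3 in one direction in each of the 3 TNF-α libraries were also listed after seeing the data. There were 4 of 45, against 7.76% of all genes tested, and none passed the test over all 6 libraries. NEDD4L, a ubiquitin ligase of epithelial ion transport, had 3.09, 2.97 and 3.36 FPKM (NC), compared with 5.35, 5.02 and 4.28 FPKM (TNF-α) (log2 difference 0.50, SE 0.13, limma adjusted p 0.164). The others were AKR1B1, higher, and ATP1B1 and SLC4A8, lower. With TNF-α replicate 1 as the lone treated library, the log2 difference was 0.62 for NEDD4L and 0.36 for AKR1B1.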
